A study of Mus musculus with 12 samples.

Results

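The 80 genes described here encode proteins of the mitochondrial ribosome, measured in mouse hearts with and without a conditional knockout of Rexo2. They were chosen by name: every gene whose symbol starts with Mrpl or Mrps and a digit, copies named -ps left out, with Dap3 and Ptcd3 added, and with a mean of at least 10 normalised counts over the 6 libraries. All 80 genes that the names gave met that minimum, of 54751 features in the table and 18250 that met it in all. By their place in solved structures of the mammalian mitochondrial ribosome, 51 belong to the large subunit, among them Mrps30 and Mrps18a despite their symbols, and 28 to the small subunit. Mrps36 is known as a component of the oxoglutarate dehydrogenase complex of the citric acid cycle and was kept apart from both subunits.

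The mitochondrial ribosome translates the few messenger RNAs that mitochondrial DNA (mtDNA) encodes, all of them for subunits of the oxidative phosphorylation complexes, on which the heart depends for its ATP. Its RNA comes from mtDNA, and its proteins come from nuclear genes, are made in the cytosol and are imported. The small subunit reads the messenger RNA, and the large subunit joins the amino acids and releases the chain beside the inner membrane. REXO2 is an exoribonuclease that degrades very short RNAs, dinucleotides above all, in mitochondria.

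The libraries were made from total RNA of whole hearts of C57BL/6N mice aged 52 weeks, with cytoplasmic ribosomal RNA depleted and cDNA primed at random. Knockout hearts (libraries 492, 499 and 501) were Rexo2 loxP/loxP with +/Ckmm, an allele named for the muscle creatine kinase gene, whose promoter commonly drives Cre recombinase in heart and skeletal muscle. Control hearts (libraries 490, 498 and 502) were Rexo2 loxP/loxP without that allele, so the Ckmm allele and the loss of Rexo2 cannot be told apart. A whole heart holds cells outside the muscle lineage, in which such a Cre is not active, and with whole tissue fewer cells of a type and less RNA per cell cannot be told apart. The labels name no animal for any library, so p-values measure the spread between these libraries, which may be partly technical.

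Rexo2 itself had 274, 288 and 314 normalised counts in knockout hearts, against 329.7, 368 and 293 in control hearts. The groups overlapped, and the log2 fold change of knockout over control was -0.17 (95% interval -0.39 to 0.041), so the count of this gene does not separate the labelled groups. Where in the gene these reads lie was not analysed here, and the labels stand unchecked by it. Depth was 43867377, 49722049 and 41979163 reads in knockout libraries, against 50764023, 48006165 and 43561069 in control libraries. Control 490 stood apart from the other controls, at a chi-square of 14.5 and 15.0 per degree of freedom against them, where the other pair of controls gave 3.52 and the pairs of knockouts 4.84 to 6.36. The cardiomyocyte genes Myh6, Actc1 and Tnni3 summed to 348901 to 377651 normalised counts in knockout hearts and 349866 to 391240 in control hearts. Sums of endothelial, fibroblast, macrophage and erythroid genes overlapped between groups. Of their single genes, fibroblast Pdgfra had all knockouts below all controls, at 820 to 835 against 866 to 890 (background 4.9%). Macrophage Adgre1 had all knockouts above, at 106 to 132 against 86.7 to 96.8 (background 4.61%). The other genes of these lists overlapped, and cell composition was not tested. Skeletal muscle myosins Myh1 and Myh4 summed to at most 2.84 in knockout hearts and 3.05 in control hearts. The liver gene Alb was at 0 in every library except knockout 499, at 27.5.

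Transcripts of the mitochondrial ribosomal proteins were close to level between knockout and control hearts, in both subunits. None of the 80 passed limma's test at an adjusted p of 0.05, the background being 0.0219% of all features tested, and the adjusted p was 1.00 for each gene named here. The median log2 fold change was 0.018 over the 80 genes, beside 0.00056 over all 18250 features. The sign of that median rested on the scaling: with libraries set to equal totals it was -0.052, where the median of all features moved by -0.070. The share of reads from mtDNA was 71.5%, 71.9% and 71.5% in knockout libraries, against 69.4%, 70.02% and 69.5% in control libraries, without overlap, and its part in that shift was not tested. Above 0 lay 44 of the 80, beside 50.2% of all features. Changes of members lay closer together than those of all features, with a standard deviation of 0.107 in log2 units, beside 0.198. The comparison was not matched for count: the median count was 381 for members and 172 over all features. The median standard error of a change was 0.087 for members, beside 0.124.

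At an unadjusted p under 0.05 in limma's test, 2 members were higher in knockout hearts, with a background of 1.72%, and 1 was lower, with a background of 1.98%. The higher ones were Mrpl57 and Mrps12, and the lower one was Mrpl36. Every knockout library exceeded every control library for 3 members, Mrpl57, Mrps12 and Mrpl13, with a background of 4.61%. No member had all knockout libraries below all control libraries, with a background of 4.9%. In either direction the counts were 3 members at an unadjusted p under 0.05, with a background of 3.7%, and 3 without overlap, with a background of 9.51%. Without control 490, the library that stood apart by the chi-square, 1 member had an unadjusted p under 0.05. The log2 fold changes were then 0.17 for Mrpl57, 0.15 for Mrps12, 0.096 for Mrpl13 and -0.17 for Mrpl36. As shares of 80 the counts over all libraries are near or below the background. Other tests gave a like picture. On reads recovered from the normalised counts, edgeR's quasi-likelihood test called no member after adjustment, with a background of 0.0274%, and 3 at an unadjusted p under 0.05, with a background of 3.78%. DESeq2 called none after adjustment, with a background of 0.17%, and none at an unadjusted p under 0.05, with a background of 1.78%. The authors' deposited table gave an adjusted p for 60 members and called none, with a background of 0.437%.

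limma's intervals show what size of change these libraries could contain under its prior and the deposited scaling. The authors' deposited table gave larger standard errors, for example 0.121 beside limma's 0.086 for Mrpl57 and 0.092 beside 0.071 for Mrpl12. Intervals built on those would be wider, and with equal totals the median of all features moved by -0.070. For 77 of the 80 genes the 95% interval of limma's fold change lay within 1.5-fold in both directions, beside 71.7% of all features. The exceptions, Mrpl52, Mrpl53 and Mrps18c, are all of low count. For 43 of the 80 it lay within 1.2-fold, beside 31.6% of all features. The members' mean counts ran between 17.97 for Mrps18c and 1266 for Mrpl51 with a median of 381, beside 172 over all features tested, and a higher count narrows the interval.

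**Figure D1:**
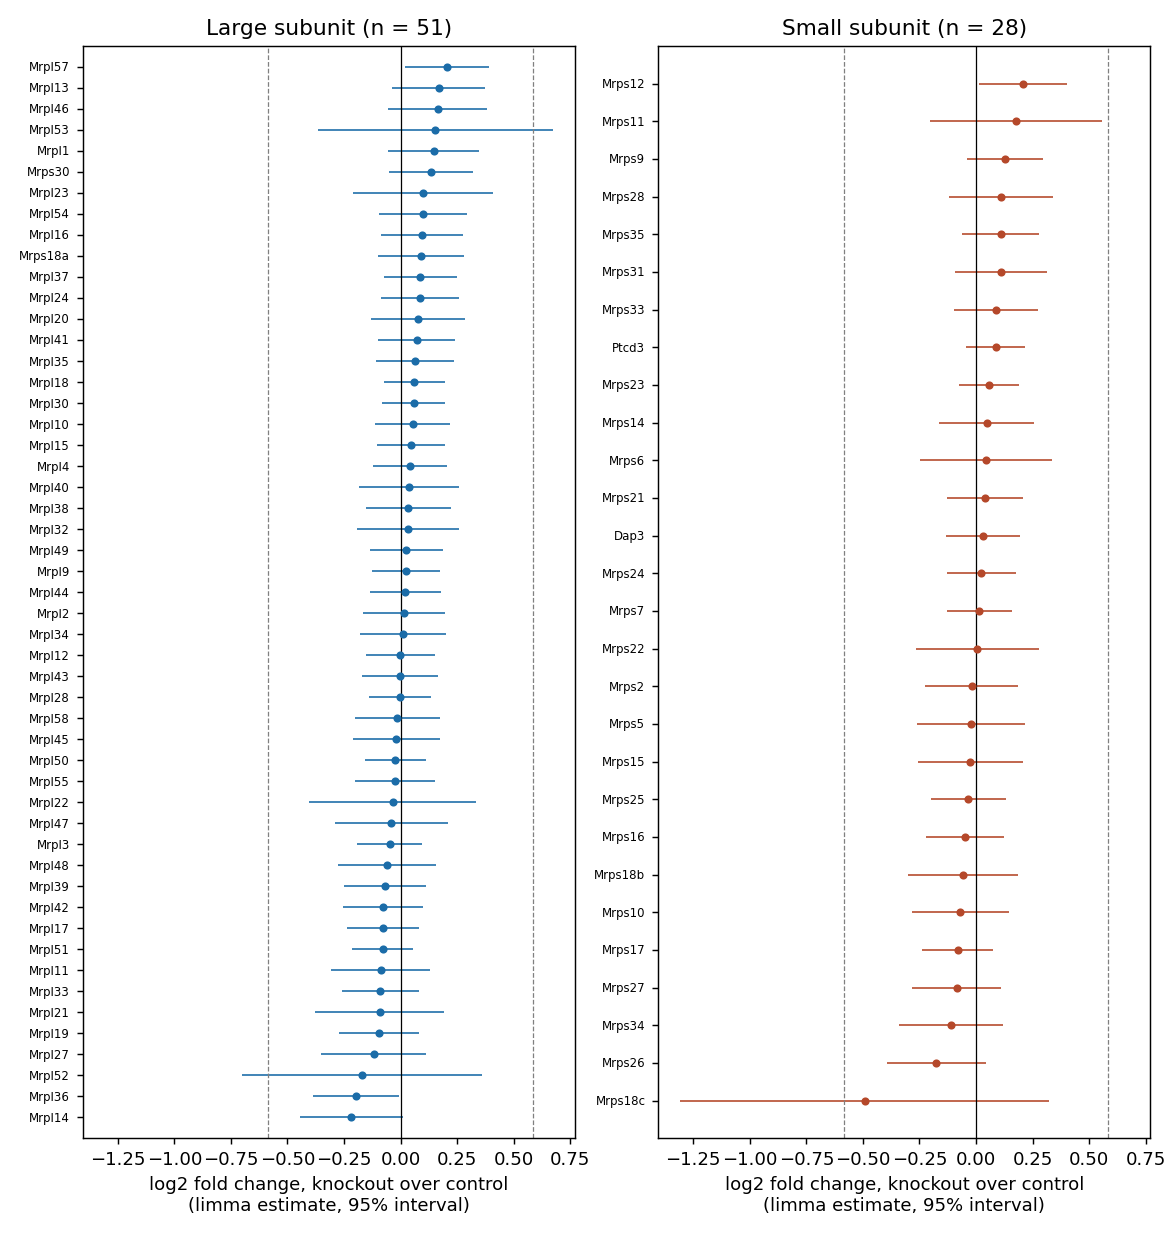
Log2 fold change of knockout over control for each gene of the large subunit (left, 51 genes) and of the small subunit (right, 28 genes), with points for limma's estimate and lines for its 95% interval. Dashed lines mark 1.5-fold in each direction. Estimates run between -0.49 (Mrps18c) and 0.21 (Mrps12), and the intervals of Mrpl57, Mrps12 and Mrpl36 leave out 0 before adjustment.

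Values of single genes are normalised counts, in the order of libraries given above. Among the large subunit genes with a higher mean in knockout hearts, Mrpl57 had the smallest p. Mrpl57, one of the proteins that mitochondria added to the bacterial plan of the ribosome, had 335, 355 and 355 in knockout hearts, against 288, 293 and 328 in control hearts. The mean was 348 ± 11.7 in knockout hearts and 303 ± 21.6 in control hearts (SD, n = 3 each). The groups did not overlap, and the log2 fold change was 0.20 (95% interval 0.018 to 0.39). Mrpl13, the counterpart of bacterial protein L13, had 276, 293 and 271 in knockout hearts, against 225, 258 and 266 in control hearts. Here too all knockout libraries exceeded the controls, though knockout 501 stood only just above control 502, and the interval of the log2 fold change of 0.17 was -0.038 to 0.37. Mrpl46, a mitochondria-specific protein, had 240.4, 221 and 266 in knockout hearts, against 206, 212 and 229 in control hearts. Knockout 499 lay below control 502 for this gene, whose log2 fold change was 0.16 (-0.057 to 0.38). Mrpl1 builds the mobile L1 stalk beside the site where spent transfer RNA leaves, and it had 324, 286 and 352 in knockout hearts, against 289, 284 and 293 in control hearts. The 3 controls lay close together, knockout 499 lay among them and the other two knockouts above, and the log2 fold change was 0.15 (-0.055 to 0.35).

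Mrpl36, a small zinc-binding protein with a bacterial counterpart, led the large subunit genes of lower level. It had 364, 331 and 323 in knockout hearts, against 407, 353 and 409 in control hearts. The mean was 339 ± 21.7 in knockout hearts and 389.7 ± 31.4 in control hearts (SD, n = 3 each). Knockout 492 lay above control 498, so the groups overlapped, with a log2 fold change of -0.20 (-0.39 to -0.0067). Mrpl14 lies at the face that meets the small subunit and had 313, 264 and 269.6 in knockout hearts, against 329.7, 290.5 and 367 in control hearts. Its log2 fold change was -0.22 (-0.44 to 0.0084), and knockout 492 again lay above control 498. Mrpl14 shares 622 bases of its span with Tmem63b, and no source used here states if the counting kept strands apart. Mrpl51, of the mitochondria-specific class, had 1239.8, 1139 and 1317 in knockout hearts, against 1277, 1310.5 and 1311 in control hearts. Knockout 501 was the highest of the 6 and the other two knockouts the lowest, with a log2 fold change of -0.079. Mrpl19, a counterpart of bacterial L19, had 435, 373 and 403 in knockout hearts, against 452, 419 and 420.3 in control hearts, with overlap and a log2 fold change of -0.095.

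In the small subunit Mrps12 had the smallest p. Mrps12 is the counterpart of bacterial S12, the protein at the decoding centre where codon and anticodon are matched, and it had 333, 319 and 353 in knockout hearts, against 267, 295 and 308 in control hearts. The mean was 335 ± 17.1 in knockout hearts and 290.2 ± 21.02 in control hearts (SD, n = 3 each). The groups did not overlap, and the log2 fold change was 0.21 (95% interval 0.015 to 0.40). Mrps9, whose bacterial counterpart reaches the transfer RNA in the peptidyl site, had 468, 499.9 and 440.0 in knockout hearts, against 448, 429.6 and 409 in control hearts. Knockout 501 lay within the control range there, and the log2 fold change was 0.13 (-0.040 to 0.30). Ptcd3, a pentatricopeptide repeat protein of the small subunit, had 1032, 1085 and 1101 in knockout hearts, against 1041, 966 and 1024 in control hearts. Its log2 fold change of 0.086 had an interval of -0.043 to 0.22, and 1 knockout library lay below the highest control. Mrps35, a mitochondria-specific protein, had 634, 603 and 584 in knockout hearts, against 625, 524 and 544 in control hearts, with a log2 fold change of 0.11 and groups that overlapped through control 490.

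Lower means in knockout hearts were led, in the small subunit, by Mrps26. This gene, for a mitochondria-specific protein, had 244, 294 and 281 in knockout hearts, against 340.4, 289.5 and 295 in control hearts. Control 490 was the highest library, knockout 499 lay within the controls, and the log2 fold change was -0.18 (-0.39 to 0.043). Mrps17, the counterpart of bacterial S17, had 541, 507 and 479 in knockout hearts, against 551, 538 and 524 in control hearts, a log2 fold change of -0.080. Mrps34, which is mitochondria-specific, had 357, 326 and 452 in knockout hearts, against 395, 409.9 and 410.1 in control hearts. Its knockouts spread far wider than its controls, with knockout 501 the highest of the 6 and the other two the lowest, and the log2 fold change was -0.11 (-0.34 to 0.12). Mrps27, a pentatricopeptide repeat protein, had 280.2, 244 and 254 in knockout hearts, against 266, 281 and 278 in control hearts, with a log2 fold change of -0.086 and overlapping groups.

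**Figure D2:**
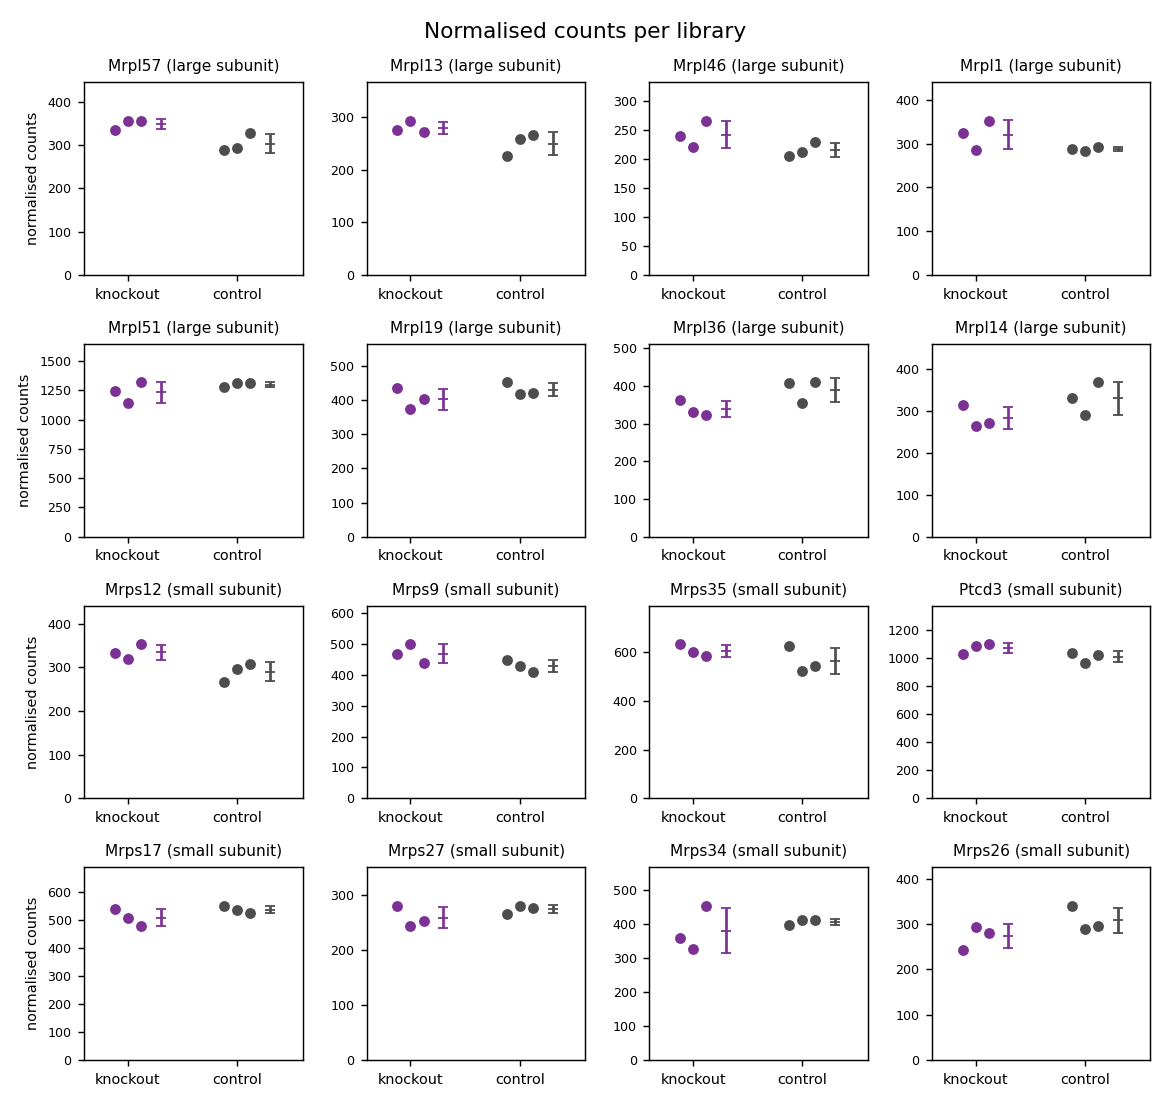
Normalised counts in each library for the 4 genes of smallest unadjusted p per subunit and direction, with knockout hearts at the left of each panel and control hearts at the right. Each point is a library, and the bar beside it gives the mean ± SD of 3 libraries. Only Mrpl57, Mrpl13 and Mrps12 have knockout points that all lie above the control points.

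The genes of the ribosome's functional centres were followed whatever their p. Along the path of the messenger RNA, Mrps2 had 443, 449.7 and 554 in knockout hearts, against 491, 522 and 448 in control hearts, and Mrps24, the counterpart of bacterial S3, had 524, 546 and 549 in knockout hearts, against 517, 515 and 563 in control hearts. Mrps5, at the channel where the messenger RNA enters, had 214, 258 and 245 in knockout hearts, against 218, 236 and 274 in control hearts. All 3 overlapped between groups, with log2 fold changes of -0.019, 0.023 and -0.021. Dap3, the GTP-binding protein of the small subunit, also known from studies of cell death, had 509, 458 and 460.3 in knockout hearts, against 456, 489.8 and 451 in control hearts. Its log2 fold change was 0.031 (-0.13 to 0.20).

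Mrpl10 and Mrpl12 form the flexible stalk that recruits elongation factors, and Mrpl11 forms its base. Mrpl10 had 624, 623 and 722 in knockout hearts, against 635, 658 and 600.4 in control hearts, and Mrpl12 had 737, 650.5 and 698 in knockout hearts, against 717, 714 and 656 in control hearts. Mrpl11 had 263, 235 and 250.4 in knockout hearts, against 286, 276 and 235 in control hearts. No stalk gene separated the groups, and the log2 fold changes were 0.053 for Mrpl10, -0.00091 for Mrpl12 and -0.088 for Mrpl11. For Mrpl12, a protein also reported to bind the mitochondrial RNA polymerase, the 95% interval was -0.15 to 0.15.

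Around the peptidyl transferase centre, where peptide bonds form, Mrpl2 had 379, 347 and 393 in knockout hearts, against 372, 385 and 349 in control hearts, and Mrpl3 had 818, 773 and 715 in knockout hearts, against 795, 811 and 775 in control hearts. Mrpl16 had 543, 579 and 582 in knockout hearts, against 477, 532 and 593 in control hearts. Mrpl27 had 165, 178 and 175 in knockout hearts, against 169.8, 200.2 and 194 in control hearts. The groups overlapped for all 4, and the log2 fold changes were 0.015 for Mrpl2, -0.049 for Mrpl3, 0.094 for Mrpl16 and -0.12 for Mrpl27.

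The exit tunnel, through which the new chain leaves, is lined or rimmed by Mrpl22, Mrpl23 and Mrpl24, and Mrpl45 holds the ribosome to the inner membrane at its mouth. Mrpl22 had 96.6, 76.7 and 109 in knockout hearts, against 115, 83.7 and 90.6 in control hearts, and Mrpl23 had 203, 149.6 and 174 in knockout hearts, against 187, 135 and 169.9 in control hearts. Mrpl24 had 486, 454 and 521 in knockout hearts, against 484, 462 and 430.4 in control hearts, and Mrpl45 had 621, 513 and 536 in knockout hearts, against 618, 559 and 514 in control hearts. All 4 overlapped, with log2 fold changes of -0.035 for Mrpl22, 0.098 for Mrpl23, 0.086 for Mrpl24 and -0.019 for Mrpl45. Mrpl58, a peptidyl-tRNA hydrolase that became a ribosomal protein, had 287, 288 and 323 in knockout hearts, against 298, 312 and 295 in control hearts. Its log2 fold change was -0.015 (-0.20 to 0.17).

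Mammals carry 3 paralogs of bacterial S18, placed at different sites of the ribosome. Mrps18a, in the large subunit, had 478, 447 and 449 in knockout hearts, against 419, 391 and 484 in control hearts. Mrps18b, in the small subunit, had 162, 182 and 166 in knockout hearts, against 167, 196 and 168 in control hearts. Mrps18c, the one at the site of bacterial S18, had 16.1, 21.8 and 7.90 in knockout hearts, against 22.3, 24.4 and 15.3 in control hearts. The groups overlapped for each, with log2 fold changes of 0.090 for Mrps18a, -0.058 for Mrps18b and -0.49 for Mrps18c. The estimate for Mrps18c is the farthest from 0 of all members, and its interval of -1.31 to 0.32 is the widest. Mrps36, outside both subunits, had 132, 134 and 109 in knockout hearts, against 119.7, 145 and 119 in control hearts, with a log2 fold change of -0.029 (-0.32 to 0.26).

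Set against each other, the subunits had nearly the same median change. It was 0.021 over the 51 large subunit genes, of which 28 lay above 0, and 0.019 over the 28 small subunit genes, of which 16 lay above 0. Both medians turned negative with equal totals, at -0.049 and -0.051, where the median of all features moved by -0.070. The mean log2 level of large minus small subunit genes within a library was 0.290, 0.244 and 0.370 in knockout hearts, against 0.331, 0.253 and 0.294 in control hearts. The groups overlapped, and their means differed by 0.0085, a difference that turned to -0.0099 over genes with a mean of at least 50, to -0.0018 with subunits taken from the symbols, and to -0.026 without knockout 501 or -0.012 without control 498. Genes with a bacterial counterpart had a median of 0.015, with 25 of 46 above 0, and mitochondria-specific genes 0.025, with 19 of 33 above 0. In this split Mrps18a and Mrps18b, though paralogs of bacterial S18, were counted as mitochondria-specific, and Mrps18c as bacterial.

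The summed counts of both subunits depended on the scaling. The 28 small subunit genes summed to 10934, 10957 and 10911 normalised counts in knockout hearts, against 10680, 10796 and 10730 in control hearts. The knockouts lay above all controls by 1.85% of the control mean, but with equal totals they lay below all controls, a difference of -2.99%. With TMM scaling the difference was 1.95%, and with equal totals outside mtDNA it was 3.80%, in both without overlap. The 51 large subunit genes summed to 23150, 21979 and 23062 in knockout hearts, against 22971, 22430 and 22419 in control hearts, which overlapped, as with TMM scaling. The large subunit sum moved with the scaling too: all knockouts lay below all controls with equal totals, a difference of -4.22%, and above them with equal totals outside mtDNA, a difference of 2.47%. The ratio of the large to the small sum, which no scaling moves, was 2.12, 2.01 and 2.11 in knockout hearts, against 2.15, 2.08 and 2.09 in control hearts, and it overlapped too. A sum follows its genes of highest count, and no test was run on it.

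The number of members above their own mean differed between libraries, with no test made of it. In knockout hearts 48, 33 and 44 of the 80 genes lay above their own mean over the 6 libraries in libraries 492, 499 and 501, against 39, 38 and 33 in control libraries 490, 498 and 502. Over all 18250 features 9236 to 9341 did so in each library. The large subunit genes gave 31, 14 and 33 of 51 above their mean in knockout hearts, against 30, 22 and 22 in control hearts. The small subunit genes gave 16, 18 and 11 of 28 in knockout hearts, against 9, 15 and 11 in control hearts. Knockout 499 was thus low for the large subunit and high for the small one among its group, and both counts overlapped between groups. The highest value of a member fell most often in knockout 501, for 20 genes, and the lowest most often in control 498, for 21.

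**Figure D3:**
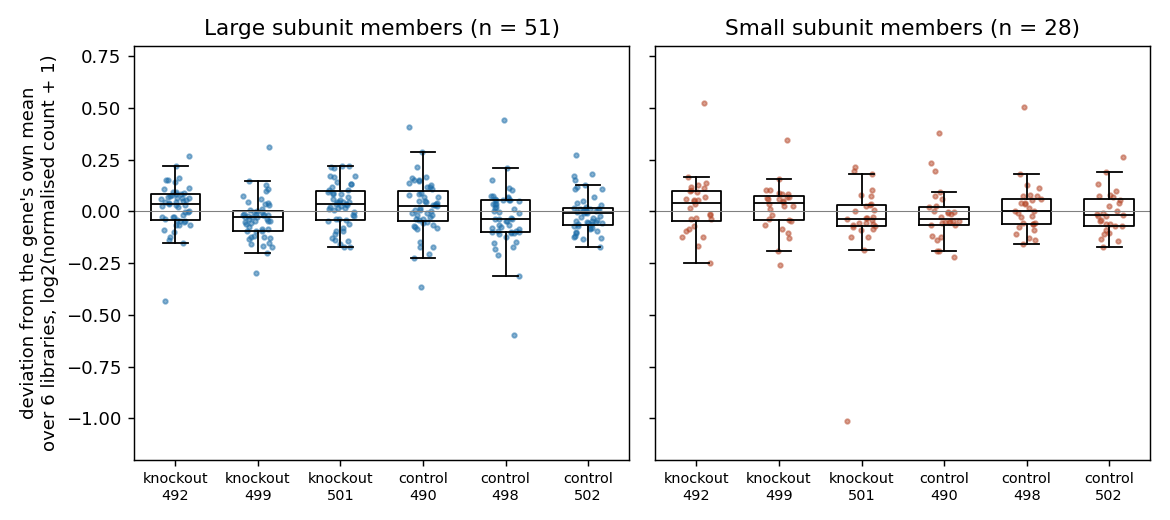
Deviation of each gene from its own mean over the 6 libraries, on the scale of log2(normalised count + 1), for the large subunit (left, 51 genes) and the small subunit (right, 28 genes), with knockout libraries left of control libraries. Points are genes, boxes give the quartiles and the median, and whiskers reach the farthest gene within 1.5 times the box. Most points lie within 0.25 of 0 in every library, and the lowest point is Mrps18c in knockout 501.

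The members varied little within groups. Their coefficient of variation within a group had a median of 6.71%, where counting alone would give 5.12%, a median ratio of 1.27. Over all features tested these were 10.3%, 7.62% and 1.34. The coefficient lay under 10% for 67 of the 80 genes, beside 8910 of all 18250 features, a comparison not matched for count. The highest of the 6 libraries exceeded the lowest by a median factor of 1.21, with 1.08 for Mrpl28 as the smallest and 3.10 for Mrps18c as the largest, and 75 genes lay under 1.5.

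Some counts may be shared with near-identical copies. Mrpl23-ps1, a copy of Mrpl23, had 579.6, 523 and 564 in knockout hearts, against 539.7, 524 and 482 in control hearts, and Mrpl48-ps had 440.1, 391 and 440.0 in knockout hearts, against 385, 394 and 352 in control hearts. Mrps36-ps1 had 368, 365 and 411 in knockout hearts, against 382, 327 and 381 in control hearts, and Mrps36-ps2 had 181, 159 and 179 in knockout hearts, against 192, 181 and 153 in control hearts. None of these copies passed limma's test, with log2 fold changes of 0.11 for Mrpl23-ps1, 0.17 for Mrpl48-ps, 0.071 for Mrps36-ps1 and -0.013 for Mrps36-ps2. Reads of Mrpl23, Mrpl48 and Mrps36 could be split with them, so the values of these 3 members are uncertain. By RefSeq positions on GRCm38.p6, 27 members overlap another gene, 21 of them a protein-coding one, and reads there may not be separated.

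Ribosomal proteins outside the naming rule and the ribosome's own RNA were set beside the members. Gadd45gip1 of the large subunit had 594, 543 and 578 in knockout hearts, against 549.5, 539 and 562 in control hearts, and Chchd1 of the small subunit had 323, 309 and 335 in knockout hearts, against 369, 341 and 334 in control hearts. Aurkaip1, also of the small subunit, had 656, 685 and 745 in knockout hearts, against 694, 693 and 663 in control hearts. Their log2 fold changes were 0.055 for Gadd45gip1, -0.11 for Chchd1 and 0.023 for Aurkaip1, none past limma's test. The 12S ribosomal RNA mt-Rnr1 had a log2 fold change of 0.071 (-0.11 to 0.26) with overlap. The 16S ribosomal RNA mt-Rnr2 had 22676784, 23165758 and 23145433 in knockout hearts, against 20633573, 20890649 and 20444235 in control hearts. These did not overlap, with a mean of 22995992 ± 276629 in knockout hearts and 20656153 ± 224062 in control hearts (SD). In limma the log2 fold change of 0.15 had a standard error of 0.139 and a 95% interval of -0.14 to 0.45. In the authors' deposited table the change was 0.15 too, with a standard error of 0.045. The p there was 0.000505 unadjusted and 0.0978 adjusted. limma's trended prior draws the variance of a gene toward a trend over all features. Its standard error is therefore not the spread of mt-Rnr2 alone. Why the standard errors of limma and the deposited table differ was not tested.

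Genes that build the mitochondrial ribosome or work with it also stayed short of the threshold. Of the 23 listed genes for ribosome assembly and modification of its RNA, none passed limma's test, with a background of 0.0219%. None had an unadjusted p under 0.05, with a background of 3.7%, and lists this short would hold few or none at that share. Their median log2 fold change was -0.023, with 11 of 23 above 0, beside 50.2% of all features. Mrm1, a methyltransferase of the 16S RNA, had 278, 207 and 234 in knockout hearts, against 275, 263 and 291 in control hearts. Tfb1m, which dimethylates the 12S RNA, had 102, 93.7 and 116 in knockout hearts, against 73.3, 94.9 and 90.6 in control hearts. Both overlapped between groups, with log2 fold changes of -0.21 for Mrm1 and 0.27 for Tfb1m, while Eral1 and Rbfa, assembly factors of the small subunit, had all knockout libraries below all controls, as did 4.9% of all features. Eral1 had 243, 218 and 222 in knockout hearts, against 252, 265 and 243 in control hearts, and Rbfa had 278, 269 and 262 in knockout hearts, against 301, 298 and 290.0 in control hearts, with log2 fold changes of -0.16 and -0.14. Of 15 listed translation factors and messenger RNA stability genes, 14 were tested and none had an unadjusted p under 0.05, with the same background of 3.7%. Their median was -0.019, with 5 of 14 above 0, and the difference from the share over all features was not tested. The smallest p values were those of Tsfm, elongation factor Ts, with 242, 234 and 229 in knockout hearts, against 196, 256 and 190.3 in control hearts, and of Taco1, an activator of Cox1 translation, with 418, 400.5 and 414 in knockout hearts, against 385, 378 and 399.9 in control hearts. The log2 fold changes were 0.15 for Tsfm, whose groups overlapped, and 0.083 for Taco1, whose groups did not. The release factor gene Mtrf1l was the other gene of this list with every knockout library above every control, as in 4.61% of all features, with 165, 170.4 and 168 in knockout hearts, against 157, 157 and 163 in control hearts.

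The 80 genes lie on 17 chromosomes, most often on chromosome 11 with 11 genes. A promoter window, 250 bases before to 50 bases after a start site in RefSeq on GRCm38.p6, was at hand for 70 of them. That site need not be the outer end of the gene. The window of Mrpl36, chr13:73330759-73331058, lies inside its span of 73328503 to 73332178. The start site used for Mrpl14, 45686349, lies inside a span that begins at 45685722. A start site of a protein-coding gene on the other strand lay within 1000 bases of the member's, head to head, for 25 of the 70, or 35.7%, beside 12.6% of 10203 protein-coding genes tested. One pair joins 2 members: Mrpl46 and Mrps11, of the large and the small subunit, start 42 bases apart on chromosome 7. Mrps11 had 150.3, 90.9 and 99.3 in knockout hearts, against 91.1, 99.6 and 103 in control hearts, with a log2 fold change of 0.18, beside 0.16 for Mrpl46. Both intervals included 0, and knockout 492 was the highest library for Mrps11, while knockout 501 was for Mrpl46. Mrps12 starts 147 bases from Sars2, which encodes the mitochondrial seryl-tRNA synthetase, and their log2 fold changes were 0.21 and -0.18. The interval for Sars2 included 0, and the difference between the genes was not tested. Other neighbours include Twnk, the mtDNA helicase, beside Mrpl43, and Ndufb5, a subunit of complex I, beside Mrpl47. Of the 25 neighbours, 23 were tested and none passed limma's test, with a background of 0.0219%, at which so few genes would hardly give a call.

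**Figure D4:**
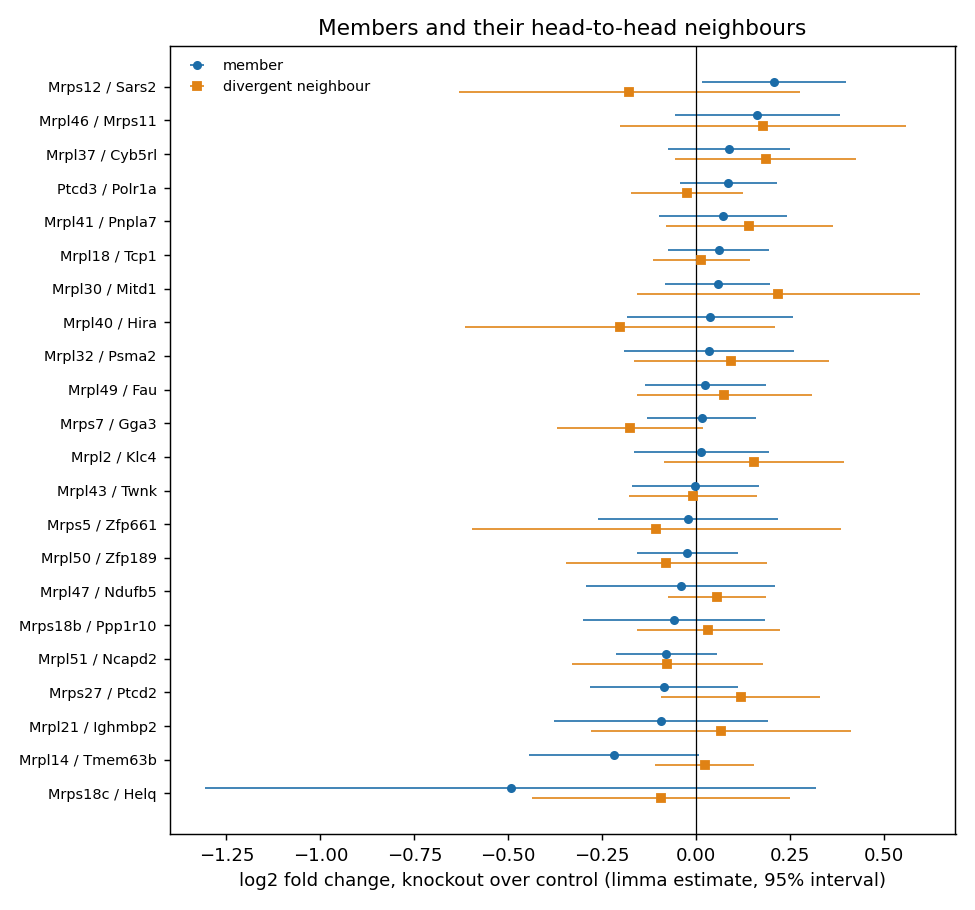
Log2 fold change of knockout over control for 22 head-to-head pairs of which both genes were tested, with circles for the mitochondrial ribosomal protein gene, squares for its neighbour and lines for limma's 95% interval. The interval of Mrps12, at 0.21, leaves out 0, while that of Sars2 beside it, at -0.18, includes 0.

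The promoter windows were searched on both strands for the core letters bound by factors known to act on nuclear genes of mitochondria. The windows of the genes with the smallest p, and the window between Mrpl46 and Mrps11, show how these letters lie around the start site, which is base 251 of each line. Capitals mark GCGCA and GCGC with any 1 base between them for NRF1, CCGGAAG for ETS factors such as GABP, and AAGATGGC for YY1, or their reverse complements. Sequences are from RefSeq, GRCm38.p6, written 5′ to 3′ on the strand of the gene: Mrps12 at chr7:28741772-28742071 on the minus strand, Mrpl57 at chr14:57825989-57826288, Mrps11 at chr7:78782881-78783180, Mrpl36 at chr13:73330759-73331058 and Mrpl14 at chr17:45686099-45686398 on the plus strand.
Mrps12: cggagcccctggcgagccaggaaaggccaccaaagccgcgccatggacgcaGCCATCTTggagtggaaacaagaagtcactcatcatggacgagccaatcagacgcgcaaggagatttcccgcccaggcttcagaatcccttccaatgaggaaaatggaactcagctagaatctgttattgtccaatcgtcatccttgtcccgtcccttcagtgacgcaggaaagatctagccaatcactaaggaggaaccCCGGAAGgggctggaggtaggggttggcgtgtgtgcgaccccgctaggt
Mrpl57: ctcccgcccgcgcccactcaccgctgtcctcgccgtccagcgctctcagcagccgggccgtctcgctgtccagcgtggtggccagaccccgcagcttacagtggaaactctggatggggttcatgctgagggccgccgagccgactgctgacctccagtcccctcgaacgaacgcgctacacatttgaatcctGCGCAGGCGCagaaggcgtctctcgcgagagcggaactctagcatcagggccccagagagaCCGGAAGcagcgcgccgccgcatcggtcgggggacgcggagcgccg
Mrps11: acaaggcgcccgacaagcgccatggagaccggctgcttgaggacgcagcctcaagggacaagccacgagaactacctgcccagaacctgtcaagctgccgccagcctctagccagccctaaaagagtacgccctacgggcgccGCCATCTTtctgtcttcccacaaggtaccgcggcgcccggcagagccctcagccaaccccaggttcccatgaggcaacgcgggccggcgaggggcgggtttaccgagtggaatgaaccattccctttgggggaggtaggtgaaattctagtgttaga
Mrpl36: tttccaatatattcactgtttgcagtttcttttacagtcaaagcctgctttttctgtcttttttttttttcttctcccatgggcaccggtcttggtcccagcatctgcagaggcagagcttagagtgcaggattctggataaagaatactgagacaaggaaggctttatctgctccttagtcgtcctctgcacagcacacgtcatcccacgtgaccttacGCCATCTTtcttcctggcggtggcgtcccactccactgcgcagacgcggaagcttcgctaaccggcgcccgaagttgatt
Mrpl14: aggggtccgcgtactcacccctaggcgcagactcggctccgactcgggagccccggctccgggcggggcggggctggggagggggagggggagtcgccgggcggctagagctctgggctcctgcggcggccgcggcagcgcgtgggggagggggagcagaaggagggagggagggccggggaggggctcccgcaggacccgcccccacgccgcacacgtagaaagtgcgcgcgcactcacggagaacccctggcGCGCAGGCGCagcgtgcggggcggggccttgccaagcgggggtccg

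In these windows the ETS letters of Mrps12 begin 1 base after its start site, and its YY1 letters lie 199 bases upstream. Mrpl57 has NRF1 letters 57 bases upstream and ETS letters 4 bases after its start. Mrps11 has YY1 letters 107 bases before its start, a stretch that belongs to the transcribed side of Mrpl46. Mrpl36 has YY1 letters 30 bases before the start site used, and Mrpl14 has NRF1 letters 4 bases after the one used. For both genes that site lies inside the RefSeq span of the gene. Among these windows, picked by p or as a pair, genes with higher and with lower knockout values both carry such letters. A link between letters and direction was not tested.

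A gene with several windows counted if any of them held the letters, so more windows gave more chances of a match. Of the 70 members with a window, YY1 letters were in 18.6%, beside 5.11% of the 10203 protein-coding genes tested and 3.57% of all 17492 with a window. ETS letters were in 37.1%, beside 19.5% and 12.9%, and NRF1 letters in 18.6%, beside 11.2% and 7.17%. At least 1 of the 3 was in 62.9% of the members with a window, beside 31.4% and 21.03%. The more general letters did not follow this order: CCAAT was in 38.6% of members and 42.8% of genes tested, GGGCGG in 50.0% and 67.9%, and TATAAA in 7.14% and 8.95%. GGGCGG was in 37.8% of large subunit genes and 70.8% of small subunit genes with a window. Each set of letters was counted on its own, overlaps with another allowed, and a match is a description of letters, not of binding.

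Changes were small whichever letters a window held. The 26 genes with ETS letters had a median log2 fold change of -0.042 with 10 above 0, and the 44 without had 0.022 with 26 above 0. The 13 genes with YY1 letters had 0.034 with 10 above 0, beside -0.0043 for the 57 without. The 13 with NRF1 letters had 0.021 with 7 above 0, beside 0.0055 for the 57 without. None of these genes passed limma's test, and the differences between groups of genes were not tested.

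**Figure D5:**
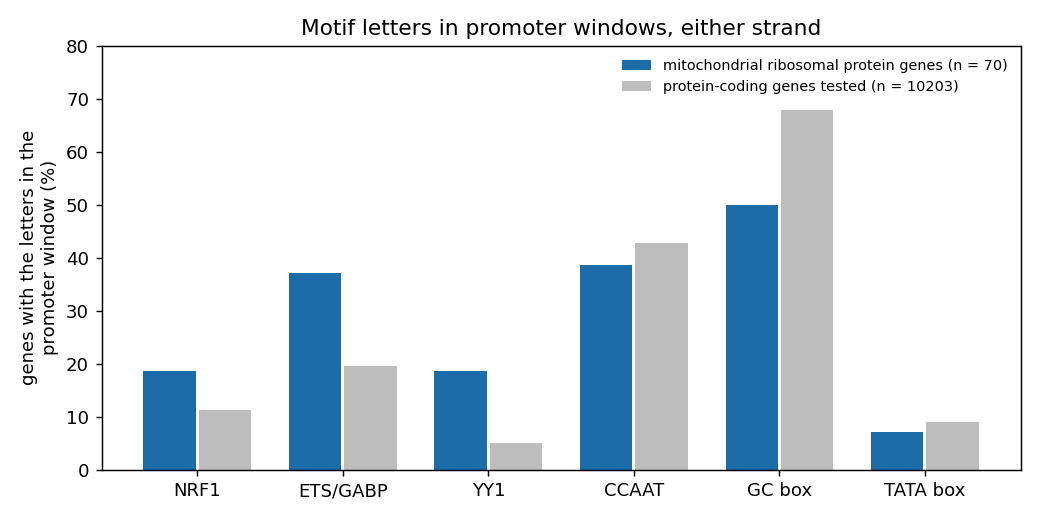
Share of genes of which any promoter window (250 bases before to 50 after a start site) holds each set of letters on either strand. Blue bars are 70 mitochondrial ribosomal protein genes, and grey bars are 10203 protein-coding genes tested. The bars of NRF1, ETS and YY1 letters are higher for the ribosomal protein genes, at 18.6%, 37.1% and 18.6%, and that of the GC box (GGGCGG) is lower, at 50.0%.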

How the data were processed

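Total RNA of 6 hearts' libraries, 3 per genotype, was analysed. The table holds signal that the authors deposited as normalised counts per gene. The submitters' processing notes name DESeq2 1.22.2, R 3.5.2, featureCounts, bedtools and Bowtie2 2.3.4.1 and the builds GRCm38 and mm10, without roles. The authors also deposited a DESeq2 table with log2 fold changes, a test score and p-value columns, used as given. Features were joined to symbols by Ensembl identifier, for 54686 of 54715. Divided by the value of a single read, 100% of 156689 nonzero values came out whole, within 0.01. No source used here says if reads spanning splice junctions were aligned.

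In R 4.3.3, limma 3.58.1 (trended prior, genotype as the only term, 2-sided) was run on log2(normalised count + 1), a scale that understates changes of low genes, over all 18250 features with a mean of at least 10, with Benjamini-Hochberg adjustment at 0.05. Alternatives were other pseudocounts, filters, scalings and priors, DESeq2 1.42.0 and edgeR 4.0.16 run on whole reads, the authors' deposited table, and leaving out each library. The pairs of libraries in a group differed beyond counting noise, so each counted as 1 sample.

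The members and lists were chosen with earlier results of these data known. Members named were, per subunit and direction, the 4 of smallest unadjusted p with a mean of at least 50, the S18 paralogs, Mrps36 and genes of the functional centres. A rule by level per exon length was not applied, as no exon lengths were used here, so levels are not compared between genes. Gadd45gip1, Chchd1, Aurkaip1, copies and neighbours were set beside them. Libraries of RNA ends from heart mitochondria were not analysed here. Gene positions, promoter windows and neighbours are from RefSeq, GRCm38.p6.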

Additional observations from a re-analysis of the deposited data

How the results depend on the processing

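No paired analysis was possible because the table's columns carry library numbers and no replicate numbers. No member passed the adjusted threshold under any of 18 alternatives, and edgeR's and DESeq2's tests on recovered reads called none of the 80, with 3 and 0 at an unadjusted p under 0.05 and backgrounds of 3.78% and 1.78%. Over all features limma called 4. The count was 12 without the filter, 37 with equal totals, 0 without the trend, 12 with a robust prior, 31 by DESeq2, 33 in the authors' deposited table and 1 to 8 when a library was left out, 8 of them without control 490. Members at an unadjusted p under 0.05 numbered 3 in limma, 1 without the trend, 0 by DESeq2, 0 in the authors' deposited table and 1 to 4 with a library left out, with 1 without control 490 and 1 without knockout 501. The median log2 fold change with equal totals was -0.052 over all members, -0.049 for the large and -0.051 for the small subunit, and 0.045 over all members with equal totals outside mtDNA. With a library left out it ran 0.0064 to 0.030 over all members, 0.0020 to 0.045 for the large and -0.00028 to 0.033 for the small subunit. Large minus small subunit level ran -0.026 to 0.037.

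Of all 80 members, 38 kept their sign under every alternative that gave them a value, and of the 36 named members, some chosen by a small p, 22 did. Among the named members, the log2 fold change with equal totals turned to -0.039 for Dap3, -0.017 for Mrpl10, -0.055 for Mrpl2 and -0.047 for Mrps24. With equal totals outside mtDNA it turned to 0.026 for Mrpl12, 0.0086 for Mrpl45, 0.012 for Mrpl58, 0.0088 for Mrps2 and 0.0059 for Mrps5, and with TMM to 0.00044 for Mrpl12. Of all 80 members, 46 kept their sign in every fit with a library left out. Among the 36 named members, the log2 fold change crossed 0 in such fits for 13, running -0.018 to 0.068 for Dap3, -0.017 to 0.089 for Mrpl10, -0.044 to 0.046 for Mrpl12, -0.024 to 0.066 for Mrpl2, -0.15 to 0.10 for Mrpl22, -0.033 to 0.21 for Mrpl23, -0.095 to 0.0020 for Mrpl3, -0.10 to 0.050 for Mrpl45, -0.071 to 0.014 for Mrpl58, -0.11 to 0.019 for Mrps18b, -0.12 to 0.038 for Mrps2, -0.082 to 0.065 for Mrps36 and -0.095 to 0.069 for Mrps5. The cause was not tested. Mrps18c, at a mean count of 17.97, had a coefficient of variation of 33.3% within groups, where counting alone would give 23.3%.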
